A study of Homo sapiens with 4 samples.

Results

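SW1990 is an established human pancreatic ductal adenocarcinoma line, and 9 genes that mark intestinal-type epithelium were followed in it: the transcription factor genes CDX1, CDX2, ELF3 and HNF4A, and the marker genes LGALS4, LCN15, VIL1, CDH17 and GPA33. They were chosen by gene name out of 58735 genes, and selected on their counts in these same gomisin G and vehicle libraries, which were known. Their own differences between the groups are therefore given as a description, with no p-value. The cells were exposed for 24 h either to gomisin G at 10 µM (2 libraries) or to vehicle (2 libraries). Gomisin G is a plant lignan from Schisandra. The series concerns the Hippo-YAP pathway and carries no genetic change between its groups. It is not stated whether the replicates were separate cultures. The spread behind each p-value is therefore that of these libraries and may be technical.

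In the intestine the caudal homeobox factors CDX1 and CDX2 set and maintain epithelial identity, together with the nuclear receptor HNF4A and the epithelial ETS factor ELF3. Villin (VIL1) bundles actin in the microvilli of the brush border, LI-cadherin (CDH17) joins neighbouring cells, and the A33 antigen (GPA33) is a surface glycoprotein of intestinal cells. Galectin-4 (LGALS4) binds glycans at the cell surface, and LCN15 belongs to the lipocalins, a family of small secreted proteins. Such genes can also be active in adenocarcinomas of the pancreas.

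Total counts per library were 14580848 to 15245770, and 15721 genes passed a filter on low counts. The labelled cell type was set against its markers. The duct keratin genes KRT8, KRT18 and KRT19 and the epithelial gene EPCAM were at 486 CPM (counts scaled to library size with TMM factors) or more in each library, whereas KRT7 was at 0.875 to 2.07 CPM, SPP1 had 0 to 2 counts and ONECUT1 had 0 counts in each library. Of 22 markers of fibroblasts, endothelium, blood, liver, acinar and endocrine cells, COL1A2, LUM, PTPRC, CD3E, HBB, CELA3A and GCG were among those with 0 counts in every library. Their summed level was 16.3 and 20.1 CPM in the gomisin G libraries, against 13.2 and 14.9 CPM in the vehicle libraries. The part of these transcripts in the results was not tested. From bulk RNA, more cells with a transcript and more of it per cell cannot be told apart.

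Promoter sequence is shown for 4 of the 9 genes, to set ELF3, LCN15 and LGALS4, which were higher with gomisin G, beside CDX2, which was not. RefSeq windows (GRCh38.p14) were at hand for ELF3 (chr1:202010337-202010636, plus strand), LCN15 (chr9:136764469-136764768, minus strand), LGALS4 (chr19:38812896-38813195, minus strand) and CDX2 (chr13:27969266-27969565, minus strand). Each holds 250 bases before the start site and 50 from it on, written 5′ to 3′ along the gene. Capitals mark the CDX core (TTTAT), the TATA box (TATAAA) and the ETS motif of ELF3 (AGGAAG), each on either strand.
ELF3: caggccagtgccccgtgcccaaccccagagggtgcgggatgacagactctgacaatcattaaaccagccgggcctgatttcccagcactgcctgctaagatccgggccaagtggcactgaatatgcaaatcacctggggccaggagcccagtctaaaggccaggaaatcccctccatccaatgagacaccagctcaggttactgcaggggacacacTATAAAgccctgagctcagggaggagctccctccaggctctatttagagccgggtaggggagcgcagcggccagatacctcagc
LCN15: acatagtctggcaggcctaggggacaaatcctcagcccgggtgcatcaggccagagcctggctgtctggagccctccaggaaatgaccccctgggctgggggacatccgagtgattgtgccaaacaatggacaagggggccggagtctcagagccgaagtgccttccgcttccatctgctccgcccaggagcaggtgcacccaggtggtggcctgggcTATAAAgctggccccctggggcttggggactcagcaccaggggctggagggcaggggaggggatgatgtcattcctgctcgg
LGALS4: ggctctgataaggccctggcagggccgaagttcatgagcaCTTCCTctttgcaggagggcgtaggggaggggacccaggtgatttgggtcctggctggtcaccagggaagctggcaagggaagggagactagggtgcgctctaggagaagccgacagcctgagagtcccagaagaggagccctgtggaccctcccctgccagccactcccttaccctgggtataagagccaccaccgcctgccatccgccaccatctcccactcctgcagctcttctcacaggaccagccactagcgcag
CDX2: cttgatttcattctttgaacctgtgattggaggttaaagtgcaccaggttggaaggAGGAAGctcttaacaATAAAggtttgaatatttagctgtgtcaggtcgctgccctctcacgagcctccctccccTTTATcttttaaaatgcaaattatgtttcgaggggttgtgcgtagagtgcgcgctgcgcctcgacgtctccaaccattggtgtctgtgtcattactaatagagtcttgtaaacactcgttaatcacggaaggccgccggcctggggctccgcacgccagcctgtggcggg
The ELF3 and LCN15 windows each held 1 TATA box, with its first base 34 and 32 bases before the start site, where such boxes usually lie. On the opposite strand each of these boxes contains the CDX core, so the capitals in those windows are a single stretch that matches both motifs. The CDX2 window held 2 separate CDX cores and 1 ETS motif, and the LGALS4 window 1 ETS motif. Of 35116 windows of this length, 11.5% held a TATA box, 34.9% a CDX core and 33.6% the ETS motif. The TEAD motif (GGAATG), bound by the partners of YAP, was matched in the LCN15 window, just after the start site, and in 14.0% of all windows. The AP-1 motif (TGANTCA) was in none of the 4 printed windows and in 7.71% of all windows. The windows of GPA33 and HNF4A are not printed, and 1 of HNF4A held an AP-1 match. A match is a run of letters and not a measured binding site. The start sites used by RefSeq lay 2642, 1737, 419 and 1824 bases inside the deposited gene spans of ELF3, LCN15, LGALS4 and CDX2.

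Levels within a library were compared per length, as TPM (counts divided by gene length and scaled to one fixed total per library). CDX2 stood highest in both groups, at 243.5 and 294.5 TPM with gomisin G and at 324.8 and 319.3 TPM with vehicle. CDH17 followed, at 173.5 and 234.9 TPM with gomisin G and at 157.9 and 185.3 TPM with vehicle. SW1990 cells thus carried abundant CDX2 and CDH17 transcripts with vehicle as well. With gomisin G the next levels were ELF3 (27.3 ± 4.64 TPM, mean ± SD, n = 2), HNF4A (21.8 ± 7.49 TPM) and LCN15 (19.6 ± 0.919 TPM), neighbours in this order whose ranges across libraries overlapped. Within each gomisin G library ELF3 stood above HNF4A, at 24.0 against 16.5 TPM and 30.6 against 27.1 TPM. HNF4A and LCN15 changed places between these libraries. LGALS4, VIL1 and CDX1 came below these genes at 7.36, 6.85 and 5.35 TPM, again with overlap between neighbours across libraries, and GPA33 was lowest at 2.49 TPM. VIL1 stood above CDX1 within each gomisin G library, while LGALS4 and VIL1 changed places. With vehicle the order ran HNF4A (19.5 TPM), ELF3 (8.89 TPM), LCN15 (4.82 TPM), VIL1 (3.73 TPM), LGALS4 (2.69 TPM), GPA33 (1.34 TPM) and CDX1 (0.958 TPM), and in this group the overlap between neighbours was between GPA33 and CDX1. ELF3 thus stood above HNF4A by mean with gomisin G and below it with vehicle, and CDX1 above GPA33 with gomisin G and below it with vehicle.

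**Figure D1:**
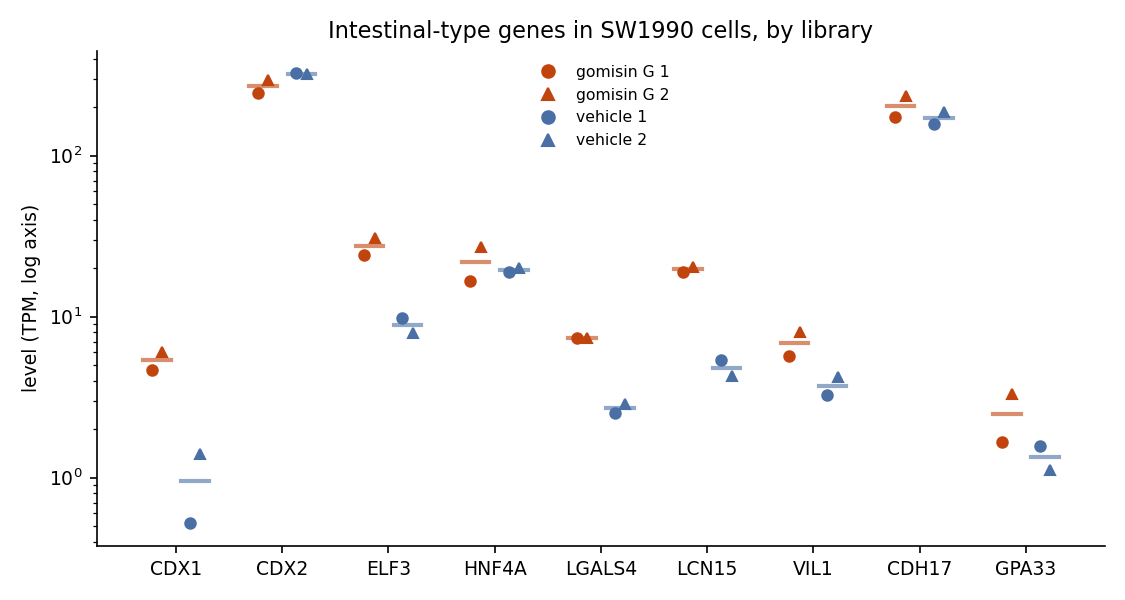
Level of each of the 9 genes in TPM (log axis) in the gomisin G libraries (orange) and the vehicle libraries (blue); circles are replicate 1, triangles replicate 2 and bars the mean of 2 libraries. CDX2 and CDH17 sit above 100 TPM in every library, while CDX1 lies between 0.521 and 1.39 TPM with vehicle and between 4.64 and 6.06 TPM with gomisin G.

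Differences between the groups are given on the CPM scale and as fitted log2 changes with the standard error (SE), positive where gomisin G was higher. Of the 9 genes, 8 had a positive log2 change and 1 a negative one, with a median of 0.98, and the median over the 15721 tested genes was 0.01. CDX1, ELF3, LGALS4 and LCN15 were among the genes called higher (Benjamini-Hochberg adjusted p below 0.05 in the edgeR fit over all genes), which were 0.922% of tested genes. Of the 9, 0 were called lower by edgeR (0.903% of tested genes), by DESeq2 or by limma voom, and 0 had a negative change with an unadjusted p below 0.05. Nothing is read from these counts, since the same contrast was known when the genes were taken. For the same reason the call of any single gene among the 9, here or below, is a description and no test of it. On the CPM scale the groups did not overlap for any of the 9 genes, as for 54.2% of tested genes, and for 8 of the 9 gomisin G was the higher group, as for 27.0% of tested genes. On the TPM scale HNF4A and CDH17 overlapped between the groups. TPM values of gomisin G replicate 1 were shifted against CPM by -0.27 on the log2 scale in the median gene, and those of replicate 2 by 0.02.

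The caudal homeobox pair did not move alike. CDX1 had 43 and 50 counts in the gomisin G libraries, against 4 and 11 counts in the vehicle libraries. Both gomisin G libraries were well above both vehicle libraries, and in proportion the vehicle libraries differed from each other by more than the gomisin G libraries did. Scaled to library size these were 2.97 and 3.16 CPM with gomisin G and 0.276 and 0.740 CPM with vehicle, a log2 change of 2.57 (SE 0.47). The summed counts, 93 with gomisin G and 15 with vehicle, gave a ratio of 6.04 per total count (95% exact counting interval 3.48 to 11.2, which covers counting error only). CDX1 reached the filter of about 10 counts in 2 libraries through the gomisin G libraries. Without vehicle replicate 1 its log2 change was 2.03 and its call was lost, and without vehicle replicate 2 it was 3.43. Its call was also lost with limma voom and with the legacy fit of edgeR.

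CDX2, the paralogue of CDX1 that is most used as an intestinal marker, had 366 and 359.9 CPM with gomisin G, against 403 and 397 CPM with vehicle. Both gomisin G libraries lay slightly below both vehicle libraries, and the log2 change was -0.14 (SE 0.16). Per length, CDX1 stood at 1.91 and 2.06% of CDX2 with gomisin G and at 0.16 and 0.437% with vehicle. CDX1 thus remained a minor transcript beside CDX2 in each of the 4 libraries.

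ELF3, the ETS factor, had 63.0 and 65.3 CPM with gomisin G, against 21.3 and 17.2 CPM with vehicle. The groups were far apart beside the spread within either, and the log2 change was 1.73 (SE 0.18). ELF3 overlaps the antisense gene ELF3-AS1, and with the strand setting of the counting unstated the reads of these 2 genes cannot be told apart. ELF3-AS1 itself had 115 and 125 counts with gomisin G and 70 and 106 counts with vehicle, fewer than the 912 and 1034 counts of ELF3 with gomisin G and the 309 and 256 counts of ELF3 with vehicle.

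HNF4A, the nuclear receptor that drives enterocyte and hepatocyte genes, had 44.1 and 58.8 CPM with gomisin G, against 41.9 and 44.0 CPM with vehicle. Gomisin G replicate 1 lay at the vehicle level and replicate 2 above it. The log2 change was 0.26 (SE 0.19), made up of 0.04 in replicate 1 and 0.45 in replicate 2 against the vehicle mean. HNF4A has an upstream and a downstream promoter that give different isoforms, and counts per gene do not separate them. With an exon length of 7311 bases HNF4A is in the longest of 4 equal classes of tested genes, where the median gene of gomisin G replicate 1 lay -0.32 from the vehicle mean and that of replicate 2 lay -0.04 from it. In the shortest class, of up to 2536 bases, the median gene lay 0.28 above the vehicle mean in gomisin G replicate 1 and 0.07 above it in replicate 2. With the length trend removed from each library the log2 change of HNF4A was 0.36, and that of CDX1, which is in the shortest class with 1758 bases, was 2.37.

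Among the markers LCN15 differed most. It had 19.96 and 17.4 CPM with gomisin G, against 4.69 and 3.70 CPM with vehicle, a log2 change of 2.15 (SE 0.23). LGALS4 had 102 and 92 counts with gomisin G, against 29 and 34 counts with vehicle, a log2 change of 1.58 (SE 0.29). For both genes the lower gomisin G library was well above the higher vehicle library. The call of LGALS4 was lost without vehicle replicate 1, without vehicle replicate 2 and with limma voom.

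The structural and adhesion markers differed less. VIL1 had 14.3 and 16.5 CPM with gomisin G, against 6.76 and 8.815 CPM with vehicle, a log2 change of 0.98 (SE 0.22). GPA33 had 1.93 and 3.16 CPM with gomisin G, against 1.52 and 1.08 CPM with vehicle, a log2 change of 0.98 (SE 0.41). Its gomisin G libraries, of 28 and 50 counts, differed from each other, with 22 and 16 counts in the vehicle libraries. Without gomisin G replicate 2 its log2 change was 0.58, and without replicate 1 it was 1.28. CDH17 had 246.5 and 271.6 CPM with gomisin G, against 185.6 and 218.2 CPM with vehicle, a log2 change of 0.36 (SE 0.17). These 3 genes lay above vehicle in both gomisin G libraries and were not among the genes called. VIL1 overlaps USP37, a ubiquitin protease gene on the other strand, which had 8.22 and 19.9 CPM with gomisin G and 32.2 and 31.0 CPM with vehicle (edgeR adjusted p = 0.125). VIL1 was called under some alternatives, DESeq2 and the length trend removed among them, and CDH17 and GPA33 were called under fewer.

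**Figure D2:**
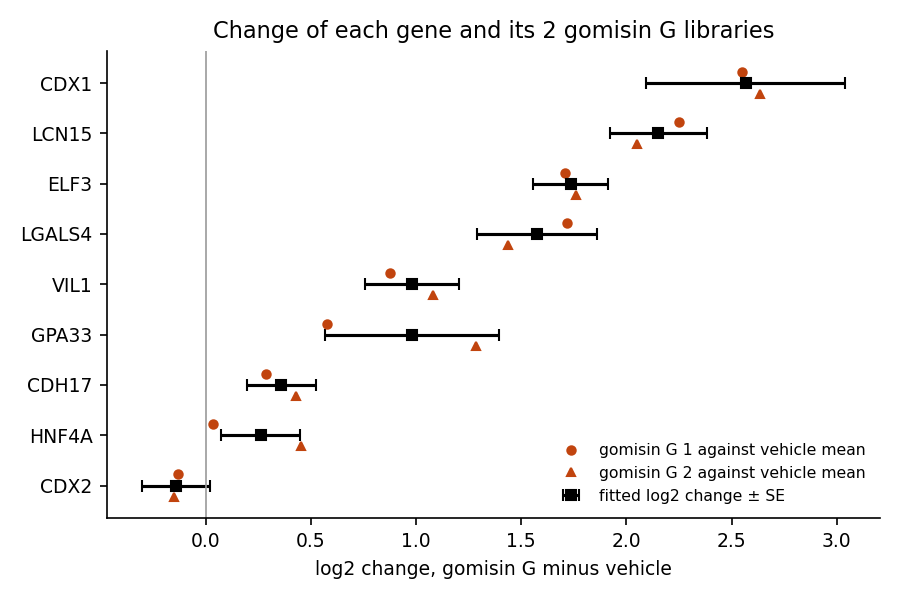
Fitted log2 change of each gene, gomisin G minus vehicle (black squares, bars are the SE from 2 libraries per group), with each gomisin G library against the vehicle mean (orange circle, replicate 1; orange triangle, replicate 2). CDX1, LCN15, ELF3 and LGALS4 lie above 1 in both libraries, while CDX2 lies just below 0 and HNF4A is at 0.04 in replicate 1 and 0.45 in replicate 2.

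The genes next to each of the 9 on its chromosome were examined within 50 kb. Of 28 tested neighbours, edgeR called 0 (DESeq2 3, limma voom 0, and 8 at an unadjusted p below 0.05), and 20 had a positive log2 change. Over all 15721 tested genes 3232 (20.6%) had an unadjusted p below 0.05 and 7977 (50.7%) a positive log2 change. Of all these genes edgeR called 1.83% in either direction and 0.922% as higher. Such counts are read against these shares here and in the lists. Both tested neighbours of CDX1 were higher by value. CDX1 lies on chromosome 5 at 150166795 to 150184558 (GRCh38). PDGFRB, the beta receptor of platelet-derived growth factor, lies on the other strand, with its 5′ end 10923 bases before CDX1. It had 3.94 and 4.36 CPM with gomisin G, against 1.45 and 1.35 CPM with vehicle (log2 change 1.57, SE 0.32, adjusted p = 0.0548). SLC6A7, a proline transporter gene, begins 5399 bases after CDX1 and had 1.38 and 1.70 CPM with gomisin G, against 0.345 and 0.336 CPM with vehicle (log2 change 2.16, SE 0.53, adjusted p = 0.0810). For each of the 3 genes both gomisin G libraries were above both vehicle libraries, as for 27.0% of all tested genes. SLC6A7 had 20 and 27 counts in the gomisin G libraries and 5 in each vehicle library. SLC6A7, like CDX1, reached the filter on low counts through the gomisin G libraries. PDX1, a pancreatic and duodenal homeobox gene 35906 bases from CDX2, had a log2 change of -0.41 (adjusted p = 0.227).

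**Figure D3:**
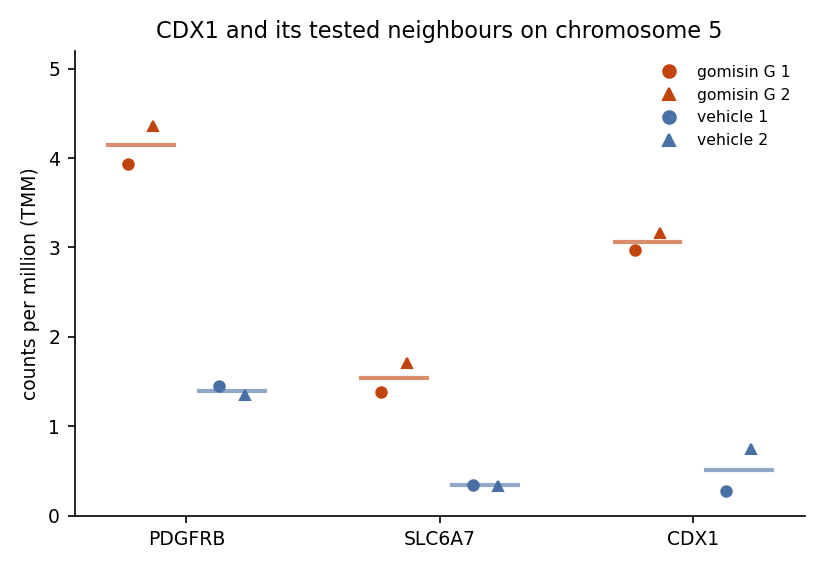
Level in CPM of PDGFRB, SLC6A7 and CDX1, neighbours on chromosome 5, in the gomisin G libraries (orange) and the vehicle libraries (blue); circles are replicate 1, triangles replicate 2 and bars the mean of 2 libraries. For each gene both gomisin G libraries are above both vehicle libraries, as for 27.0% of all tested genes.

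Other genes of intestinal and gastric epithelium were then counted in lists that did not contain the 9. Like the 9, these lists and those below were chosen with earlier results of these data known. Their counts and adjusted p-values are therefore a description and no independent test. Of 28 secreted, surface and other intestinal markers 15 were tested, and 2 rose and 0 fell, where 1.83% of all tested genes were called in either direction. The median log2 change of the 15 was 0.51, and 13 were positive. KRT20, the keratin of intestinal epithelium, had 14.6 and 17.5 CPM with gomisin G, against 2.21 and 3.03 CPM with vehicle (log2 change 2.61, SE 0.26, adjusted p = 0.00755). PHGR1, a small gene expressed in the gut, had 43 and 35 counts with gomisin G, against 5 and 4 counts with vehicle (log2 change 3.04, SE 0.50, adjusted p = 0.0323). PHGR1 reached the filter on low counts only through the gomisin G libraries, so it could be tested only because it was high there. Its call was lost without vehicle replicate 2 (adjusted p = 0.0546). KRT20 and PHGR1 are short genes of 1846 and 941 bases, and with the length trend removed their log2 changes were 2.43 and 2.86. The log2 change was 0.80 for AGR2, which helps fold mucins (adjusted p = 0.0920), and 1.63 for the goblet cell gene SPINK4 (adjusted p = 0.123). SPINK4 had 7.87 CPM in gomisin G replicate 1 and 3.03 CPM in replicate 2, against 1.66 and 1.82 CPM with vehicle. AGR2 stood at 0.50 and SPINK4 at 0.80 on the log2 scale when gomisin G replicate 1 was left out. LGR5, a marker of intestinal stem cells, was below vehicle by value, with 55.3 and 60.6 CPM with gomisin G, against 83.5 and 80.4 CPM with vehicle (log2 change -0.50, SE 0.16, adjusted p = 0.132). Several defining genes were not detected: OLFM4, ANXA13, CLCA1, PIGR, AGR3, CEACAM7 and TM4SF4 had 0 counts in each library.

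Brush border and absorption genes lay in both directions. Of 31 genes 12 were tested, 5 with a positive and 7 with a negative log2 change and a median of -0.09. For these edgeR called 0 (DESeq2 2, limma voom 0, and 4 at an unadjusted p below 0.05). With 12 genes, and 1.83% of all tested genes called, a count of 0 says little about the list. The myosin gene MYO7B had 2.42 and 4.42 CPM with gomisin G, against 0.759 and 1.14 CPM with vehicle (log2 change 1.84, adjusted p = 0.0810). ESPN, which encodes the actin bundler espin, had 3.25 and 4.42 CPM with gomisin G, against 1.66 and 1.75 CPM with vehicle (log2 change 1.17, adjusted p = 0.110). By contrast EPS8, an actin-capping protein gene, had 51.9 and 63.0 CPM with gomisin G, against 94.0 and 88.6 CPM with vehicle (log2 change -0.67, adjusted p = 0.0847), and the peptidase gene DPP4 stood at -1.09 (adjusted p = 0.164). The digestive and lipid transport genes of mature enterocytes were at or near 0: FABP1, FABP2, APOA4, APOB and MEP1A had 0 counts in each library, and sucrase-isomaltase (SI) had 1 count in all.

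Of 25 other intestinal transcription factor genes 19 were tested, 8 with a positive and 11 with a negative log2 change. For these edgeR called 0 (DESeq2 2, limma voom 0, and 5 at an unadjusted p below 0.05), and the median was -0.06. FOXA3, a forkhead factor of gut and liver, had 29.01 and 21.8 CPM with gomisin G, against 10.8 and 12.9 CPM with vehicle (log2 change 1.10, SE 0.22, adjusted p = 0.0509). The vitamin D receptor gene VDR had 15.1 and 20.8 CPM with gomisin G, against 35.3 and 35.9 CPM with vehicle (log2 change -0.99, SE 0.20, adjusted p = 0.0548). The log2 change was 0.51 for KLF4 (adjusted p = 0.133) and -1.12 for ONECUT2 (adjusted p = 0.169). ONECUT2 had 2.90 CPM in gomisin G replicate 1 and 7.89 CPM in replicate 2, against 11.0 and 12.6 CPM with vehicle. Its log2 change was -0.58 without gomisin G replicate 1 and -2.02 without replicate 2. SOX9, GATA6 and KLF5, which were above 100 CPM in each library, had log2 changes between -0.23 and 0.04.

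Of 17 gastric markers 6 were tested and edgeR called 0 (DESeq2 0, limma voom 0, and 1 at an unadjusted p below 0.05), with a median of 0.34. The mucin gene MUC5AC had 14.4 and 14.7 CPM with gomisin G, against 9.24 and 10.5 CPM with vehicle (adjusted p = 0.169). PSCA, TFF1 and CLDN18 had log2 changes of 1.26, 0.84 and -0.62, each from at most 28 counts in any library. PSCA, with 19 and 11 counts with gomisin G against 7 and 5 with vehicle, reached the filter on low counts through the gomisin G libraries. The direction of CLDN18 turned round without gomisin G replicate 1, at 0.11, where PSCA was at 0.75. TFF1 was at 0.33 without vehicle replicate 2 and at 1.60 without vehicle replicate 1. Of 18 pancreatic duct markers 14 were tested, with a median of 0.08, 8 positive and 6 negative. Of these 1 rose and 0 fell, where 1.83% of all tested genes were called in either direction. The gene that rose was the claudin gene CLDN4, with 472 and 383 CPM with gomisin G, against 181 and 185 CPM with vehicle (log2 change 1.22, SE 0.18, adjusted p = 0.0233). Its call was lost without vehicle replicate 1 (adjusted p = 0.170) or 2 (0.151). ANXA4, MUC1 and KRT19 had log2 changes of 0.72, 0.83 and 0.68 (adjusted p = 0.0758, 0.0862 and 0.147), and KRT19 was at 0.42 without gomisin G replicate 1. The duct keratin gene KRT8 was lower by value, with 4790 and 3663 CPM with gomisin G, against 6572 and 5332 CPM with vehicle (log2 change -0.49, adjusted p = 0.306). Its partner KRT18 stood at -0.45 (adjusted p = 0.337) and the E-cadherin gene CDH1 at -0.39 (adjusted p = 0.271).

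Relatives of the 9 genes were also counted. Of 32 genes of the CDX, HNF4, ETS, galectin, lipocalin, villin, 7D-cadherin and A33 families 19 were tested. Of these 3 rose and 0 fell, where 1.83% of all tested genes were called in either direction, and the median was 0.09. The galectin gene LGALS1 had 12.2 and 8.90 CPM with gomisin G, against 3.10 and 2.69 CPM with vehicle (log2 change 1.86, SE 0.27, adjusted p = 0.0246). With the length trend removed this short gene of 1099 bases stood at 1.66. By contrast LGALS3 had a log2 change of 0.01 and LGALS8 one of -0.41 (adjusted p = 0.188). LGALS9 stood at 1.18 (adjusted p = 0.321), from at most 33 counts in any library. The other genes that rose, CAPG (log2 change 1.35, SE 0.22, adjusted p = 0.0328) and GSN (0.86, SE 0.15, adjusted p = 0.0364), encode actin-capping and actin-severing proteins of the villin family. The call of GSN was lost without vehicle replicate 1 (adjusted p = 0.385) or 2 (0.408), and that of CAPG without vehicle replicate 2 (0.0741). The villin relatives VILL, AVIL and SCIN had log2 changes of 0.02, 0.12 and 0.08, and SVIL and FLII were lower by value at -0.14 and -0.37. The ETS factor EHF, close kin of ELF3, had 95.9 CPM in gomisin G replicate 1 and 199.0 CPM in replicate 2, against 206 and 229 CPM with vehicle (log2 change -0.56, adjusted p = 0.328). CDX4, the third caudal gene, had 0 counts in each library, and LCN2 had a log2 change of 0.13.

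**Figure D4:**
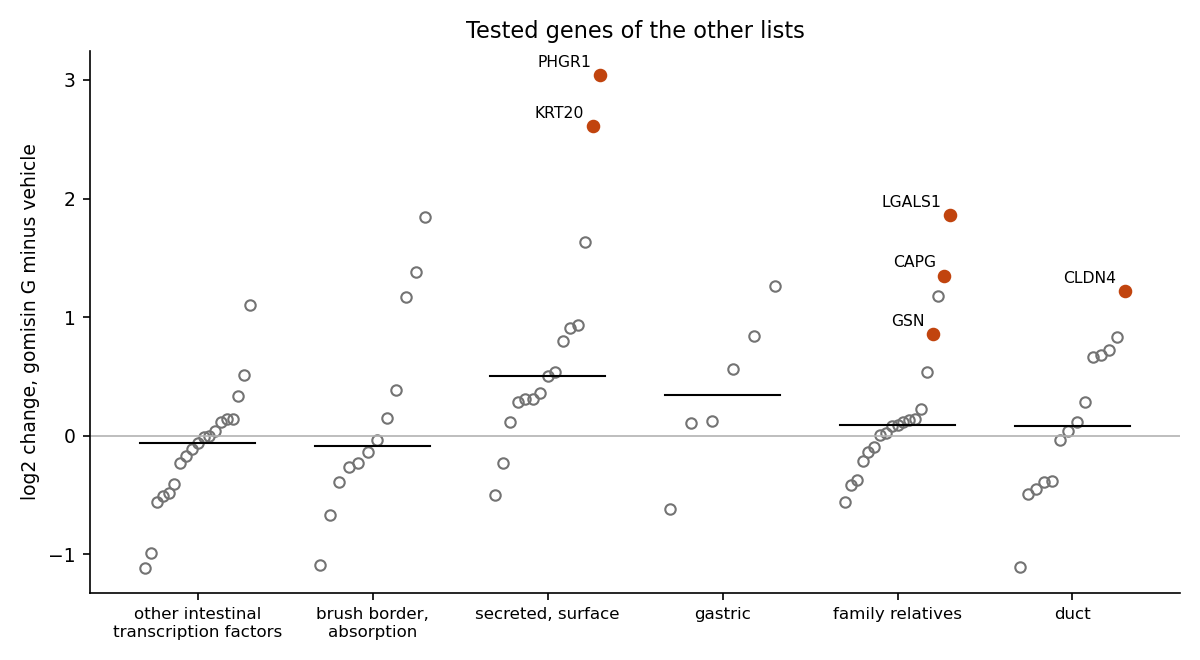
Log2 change, gomisin G minus vehicle, of each tested gene in 6 lists that exclude the 9 genes; filled orange circles passed the edgeR test over all genes (adjusted p below 0.05), open circles did not, and black bars are list medians. The named genes KRT20, PHGR1, LGALS1, CAPG, GSN and CLDN4 lie above 0. Others lie on both sides of it, but mostly above it in the secreted and surface list and the gastric list.

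Of 22 markers of other cell types 4 were tested and edgeR called 0 (DESeq2 1, limma voom 0, and 2 at an unadjusted p below 0.05). Besides PDGFRB these were COL1A1 (log2 change 0.83, adjusted p = 0.189), ACTA2 (-0.37, adjusted p = 0.413) and PECAM1 (-0.24, adjusted p = 0.901). The value of COL1A1 was 0.46 without gomisin G replicate 2, and that of ACTA2 was -0.16 without vehicle replicate 2 and -0.56 without vehicle replicate 1. The liver gene ALB had 7 and 10 counts with gomisin G, against 0 and 1 with vehicle.

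For LCN15, LGALS4 and HNF4A the protein-coding genes with the most similar profile were sought among 11522 candidates averaging 1 or more in log2 CPM, by Euclidean distance between the 4 centred log2 CPM values. With 4 libraries such a match says little beyond a similar size of difference. The nearest to LCN15 were TUBA1A, ODAM and FGF20, at distances of 0.318, 0.325 and 0.330. The nearest to LGALS4 were LIPH, DPEP1 and SERPINI1, at 0.103, 0.143 and 0.163, and the nearest to HNF4A were KLF3, RNF24 and ARPC1B, at 0.0202, 0.0494 and 0.0508. LIPH, a phospholipase gene, had 19.0 and 15.8 CPM with gomisin G, against 6.07 and 6.66 CPM with vehicle. DPEP1, a membrane dipeptidase gene, had 5.87 and 5.11 CPM with gomisin G, against 1.66 and 2.15 CPM with vehicle.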

How the data were processed

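RNA was sequenced from SW1990 cells, 2 libraries with gomisin G and 2 with vehicle. Per the labels, ribosomal RNA was removed before library construction. The authors deposited raw counts per gene, made with fastp, HISAT2 and featureCounts on hg38, per the submitters' processing notes. Versions and strand setting are not given in the sources used here, and replicates were not pooled. The series table and the sample tables differed in 0 values. Coordinates of all 9 genes matched GENCODE release 29 (GRCh38).

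Counts were analysed with edgeR 4.0.16 in R 4.3.3: low counts were removed with filterByExpr, libraries were scaled by TMM, and treatment was tested alone with the robust quasi-likelihood method (2 residual degrees of freedom), with Benjamini-Hochberg adjustment over 15721 genes and a threshold of 0.05. Adjusted p-values in the text are from this test. Alternatives were DESeq2 1.42.0, limma 3.58.1 voom, other factors, filters and fits, a loess correction for gene length, the replicate number as a block, and leaving out each library. TPM used the deposited gene lengths. The 9 genes and the 7 lists were chosen with earlier results of these data known. Named genes are the 9, up to 4 of each list with the lowest p, and the 3 nearest profiles. Others named for a level of 0, a family, a neighbourhood or a direction were chosen after their values were seen. At these depths 3 counts, the floor for a count of 0, equal 0.189 to 0.207 CPM. Promoter windows are from RefSeq, found for 6 genes outside chromosome 8, which was not used for sequence. Values of some listed genes are not reported here.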

Additional observations from a re-analysis of the deposited data

How the results depend on the processing

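The log2 changes of the 9 genes kept their sign under each of the 13 alternatives in which they could be computed. CDX1 and GPA33 had too few counts for the filter of at least 50 counts in 2 samples. Of the 9, edgeR called 4, and limma voom called 2. Over all tested genes the count of 287 became 883 with DESeq2 and 848 with the length trend removed. The other counts by edgeR became, with DESeq2, 2 for the other intestinal transcription factors, 2 for brush border, 4 for secreted and surface markers, 3 for duct markers and 1 for other cell types. With the length trend removed they were 2, 1, 2, 3 and 1 in the same order. The filter of at least 50 counts gave 1 for transcription factors, 1 for secreted and surface markers and 1 for other cell types, and upper-quartile factors gave 1 for transcription factors.

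Same-numbered libraries deviated together (correlation 0.362 across genes), but with 2 pairs and no label that ties the numbers they share only a number. The gomisin G libraries differed from each other more than the vehicle libraries did. Their median absolute log2 difference was 0.284, against 0.125 between the vehicle libraries, over 12805 genes. With the replicate block 2886 genes were called, and 5 of the 9 genes, 6 transcription factors, 4 brush border genes, 7 secreted and surface markers, 1 gastric, 4 family, 4 duct and 2 other-cell markers.

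Leaving out 1 library gave 135 to 6322 calls over all genes. These ranges were 2 to 8 for the 9 genes, 0 to 8 for transcription factors, 0 to 4 for brush border, 1 to 9 for secreted and surface markers, 0 to 2 for gastric markers, 1 to 9 for relatives, 0 to 8 for duct markers and 0 to 2 for other cell types. The lowest of these came without a vehicle library, where the gomisin G pair supplies the spread, and the highest without a gomisin G library. With 1 library left out, CLDN18 ranged from -2.37 to 0.11 and PECAM1 from -1.36 to 1.15, and PECAM1 was 0.34 without gomisin G replicate 1. Depth limits CDX1, GPA33, PHGR1, PSCA, TFF1, CLDN18 and PECAM1, which rest on few counts.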
